A study of Mus musculus with 4 samples.

Results

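The 10 genes described here are Insr, Irs1, Irs2, Pik3ip1, Foxo1, Foxo3, Fbxo32, Bbc3, Sesn1 and Trp53inp1, out of 31053 genes counted in mouse kidney cells after FGF23, a bone-derived hormone that lowers phosphate uptake by the kidney. They were chosen by symbol, as genes of insulin signalling and FoxO-type targets, with the falls of several of them in these same libraries already known. Their differences from 0 h are therefore a description and carry no test. Kidneys came from 10-week-old C57BL/6 mice of both sexes, with no transgene or deletion given, and male and female kidneys were combined. The mice received 10 µg of recombinant human FGF23 (rhFGF23) once, by injection into the abdominal cavity, and kidneys were taken at 1, 4 or 12 h. The baseline group is labelled 0 h with a dose of 0 µg, but its deposited matrix carries a name that speaks of saline and 1 h. Whether those mice were injected is thus not settled, and they are called the 0 h library. A 24 h group of the design was not analysed here. There was 1 library per time, so nothing here was replicated and no group could be tested against another.

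Insulin binds its receptor, and the adaptors IRS1 and IRS2 then pass the signal to the lipid kinase PI3K and on to AKT, which keeps FoxO transcription factors out of the nucleus. When that signal is low, FoxO factors in the nucleus switch on genes for stress resistance, growth restraint, protein breakdown and cell death, and also genes of the insulin pathway itself. FGF receptors with the co-receptor Klotho signal mainly through ERK in the kidney tubule, and FGF receptors can also engage PI3K. FoxO proteins are controlled largely by where they sit in the cell, which RNA counts do not show.

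Promoter sequences are shown for Bbc3, Irs2 and Irs1, which carried matches to the longer letter strings that FoxO factors are known to bind; a Sesn1 window held TGTTTG alone. RefSeq promoter entries (GRCm38.p6) matched 7 of the 10 genes by symbol, with 10 start sites. The 250 bases before each start were searched on both strands for TGTTTAC, for TGTTTG and for TGTTTTG, none of which lies within another. TGTTTTG was added after the windows had been searched for the other motifs. TGTTTAC was in 1 of the 10 windows and in 3.17% of all 32841 windows of the same length. TGTTTG was in 2 of the 10 and in 16.0% of all, and TGTTTTG was in 2 of the 10 and in 5.56% of all. The shorter core TGTTT, which lies within all of them, was in 5 of the 10 and in 46.4% of all, so these letters are common. Capitals mark the matches to the 3 longer motifs, on either strand. The windows are, on GRCm38.p6, chr7:16310011-16310260 (plus strand) for Bbc3, chr8:11008930-11009179 (minus strand) for Irs2 and chr1:82291440-82291689 (minus strand) for Irs1, each written 5′ to 3′ along the gene.
Bbc3: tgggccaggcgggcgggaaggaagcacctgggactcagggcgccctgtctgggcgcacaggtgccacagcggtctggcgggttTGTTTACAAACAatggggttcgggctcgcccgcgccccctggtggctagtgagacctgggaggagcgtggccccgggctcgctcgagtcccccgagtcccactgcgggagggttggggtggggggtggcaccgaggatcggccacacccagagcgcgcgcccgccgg
Irs2: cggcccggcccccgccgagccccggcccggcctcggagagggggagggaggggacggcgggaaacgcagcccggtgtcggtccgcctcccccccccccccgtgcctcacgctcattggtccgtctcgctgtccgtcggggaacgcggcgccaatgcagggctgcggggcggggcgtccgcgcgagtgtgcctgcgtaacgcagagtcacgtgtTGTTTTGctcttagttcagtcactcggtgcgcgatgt
Irs1: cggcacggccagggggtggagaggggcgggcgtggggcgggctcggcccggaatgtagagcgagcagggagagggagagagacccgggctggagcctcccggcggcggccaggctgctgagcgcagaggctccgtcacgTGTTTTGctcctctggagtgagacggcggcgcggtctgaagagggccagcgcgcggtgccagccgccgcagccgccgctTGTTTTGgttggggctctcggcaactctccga
The TGTTTAC match before Bbc3 begins at position -167, counted from the start site of that window, and the TGTTTTG match before Irs2 begins at -37. Bbc3 has other start sites, whose windows (chr7:16309333-16309582 and chr7:16310181-16310430) hold no match. The Bbc3 window shown lies within the gene's annotated span. The TGTTTG match before Bbc3 is on the other strand and overlaps the TGTTTAC match by 1 base. These windows overlap no annotated exon. A match is a description of the letters and not evidence of binding.

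The 4 libraries held 12245 to 13813 barcodes and 139675666 to 158838728 UMIs (unique molecular identifiers, each standing for 1 captured RNA), and 8807 to 10207 cells were kept. Any pair of libraries shared 36 to 57 barcodes. Cells were grouped into 42 clusters, and names such as PT-like (proximal tubule) and DCT/CNT-like (for the distal convoluted tubule and the connecting segment) were rebuilt here from marker genes, and 11 clusters stayed unnamed. PT-like cells numbered 6779, 6400, 7457 and 6538 at 0, 1, 4 and 12 h, and DCT/CNT-like cells 489, 470, 632 and 572. The markers used for naming had UMIs in their classes, 7 of 7 for DCT/CNT and 10 of 10 for PT. Because the same markers named the clusters, that is no check of the names. A marker counted as on from 0.25 of its top cluster level and in at least 10% of cells. By that rule the DCT/CNT cluster led by Slc12a3 and Pvalb had 3 markers on, the minimum, and the other DCT/CNT cluster 6. Levels are CPM, a gene's UMIs scaled to the same total in every class and library, and every interval is a 95% interval for counting error alone. The 0 and 1 h libraries stood apart from the later ones in other ways. There were 349, 323, 81 and 58 neutrophil-like cells at 0, 1, 4 and 12 h, and the summed neutrophil markers within DCT/CNT-like cells were at 49.4, 39.99, 1.90 and 1.53 CPM, with 3 of the 6 markers at 0 in at least 1 library. UMIs of the insulin genes Ins1 and Ins2 (chosen after their values were seen) came to 587, 526, 13 and 9 in PT-like cells. The median mitochondrial share, a sign of RNA quality, was 26.8, 26.3, 19.8 and 24.4% over all barcodes and 35.7, 35.7, 30.6 and 33.7% in DCT/CNT-like cells, lowest at 4 h. The part of these differences in the results was not tested.

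At 0 h the 10 genes were not tubule genes alone, as the plot of levels by class shows. Irs2 was highest in PT-like cells at 42.3 CPM, with PC-like cells (principal cells of the collecting duct) next at 26.8 and DCT/CNT-like cells at 23.7. The intervals of PT-like and PC-like cells did not overlap. Between PT-like and DCT/CNT-like cells the order differed by sex, as called from X and Y transcripts. Male-called cells held 55.1 and 17.0 CPM in these 2 classes, and female-called cells 17.1 and 29.0. Irs1 was highest in IC-like cells (intercalated cells) at 80.03 CPM, followed by TAL-like cells (thick ascending limb) at 27.5 and DCT/CNT-like cells at 27.4, which did not differ beyond their intervals. In PT-like cells Irs1 was at only 0.730 CPM, and endothelial-like cells held 0 Irs1 UMIs in all 4 libraries.

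Insr was highest in PC-like and endothelial-like cells, at 84.7 and 82.2 CPM, with overlapping intervals, and stood at 59.8 in DCT/CNT-like and 36.9 in PT-like cells. Foxo1 was highest in endothelial-like cells at 125 CPM, and at 24.1 in DCT/CNT-like and 24.4 in PT-like cells. Foxo3 was highest in neutrophil-like cells at 87.1 CPM, and among tubule classes in DCT/CNT-like cells at 58.4. Pik3ip1 was highest in lymphocytes, at 111 CPM in B-like and 92.8 in T/NK-like cells, with overlapping intervals. Sesn1 was likewise highest in B-like cells at 80.97 CPM, with an interval that overlapped that of T/NK-like cells (51.1), and Trp53inp1 in neutrophil-like cells at 116. Bbc3 was highest in macrophage-like cells at 37.6 CPM, with T/NK-like cells at 28.2 and overlapping intervals, and Fbxo32 in DCT/CNT-like cells at 13.7, with T/NK-like cells at 12.1 and overlapping intervals. Pik3ip1 and Fbxo32 were near absent from PT-like cells, at 0.122 and 0.155 CPM, the level of 11 and 14 UMIs among 6779 cells.

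**Figure D1:**
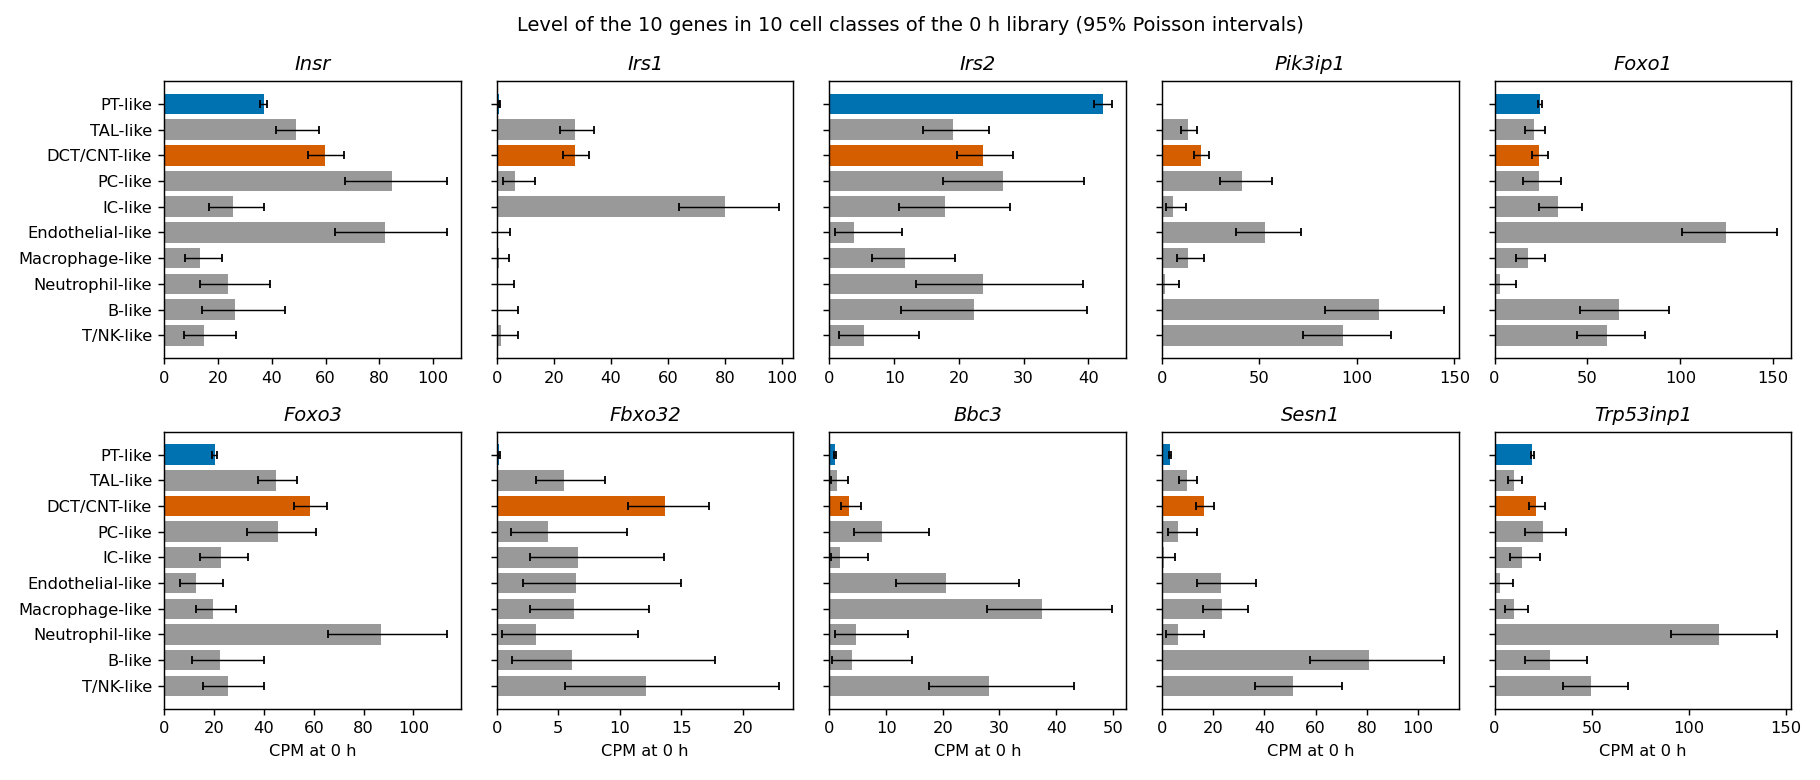
CPM of each gene (horizontal axis, one panel per gene) in 10 cell classes of the 0 h library, with 95% Poisson intervals for counting error. With cells of both sexes together, Irs2 is highest in PT-like cells (blue, 42.3 CPM) and Fbxo32 in DCT/CNT-like cells (orange, 13.7 CPM). Irs1, Pik3ip1 and Fbxo32 are near 0 in PT-like cells.

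In DCT/CNT-like cells most of the genes stood below their 0 h level after FGF23. A gene was called lower or higher when it differed at least 1.5-fold (0.58 on the log2 scale) with at least 50 UMIs over the pair of libraries. Bbc3 did not reach the UMI minimum in this class, so 9 of the 10 genes could be read. At 1 h, 5 of the 9 were lower (Pik3ip1, Irs1, Fbxo32, Sesn1 and Trp53inp1) and 0 higher, where 3.63% of all 9273 genes read were lower and 2.75% higher. At 4 h, 7 of 9 were lower, with Foxo3 and Insr added, against 10.3% of all genes lower and 6.66% higher. At 12 h, 6 of 9 were lower and Irs2 was higher, against 7.47% lower and 5.60% higher. Falls of at least 2-fold were seen for 2, 3 and 3 genes, where 0.669%, 2.83% and 1.82% of all genes were. The median log2 ratio of the 9 genes was -0.63, -0.98 and -0.95, and that of all genes -0.03, -0.05 and -0.03. Because the genes were chosen with these falls known, nothing is read from the contrast with all genes. At a mitochondrial limit of 25% the UMIs of this class left 2, 4 and 4 genes to read, of which 0, 2 and 1 were lower, and in male-called cells 1 of 6 was lower at 1 h.

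In PT-like cells fewer of the genes were called, and Irs2 had the lowest ratio at each time. Pik3ip1 and Fbxo32 were under the UMI minimum, leaving 8. At 1 h, 2 of 8 were lower (Irs2 and Bbc3), where 2.68% of all 12511 genes were lower and 1.61% higher. At 4 h, 2 of 8 were lower (Irs1 and Irs2), against 6.00% lower and 6.95% higher, and at 12 h, 4 of 8 (Irs1, Irs2, Trp53inp1 and Foxo3), against 5.20% lower and 5.68% higher. In male-called cells alone 1 of 7 was lower at 4 h and 2 of 7 at 12 h, and in female-called cells 1 of 6 at 12 h. None of the 8 was called higher at any of the 3 times in the class as a whole. Sesn1 was called higher at 12 h in its female-called cells, and Bbc3 at 4 h in its male-called S3-like cells (the straight end segment). At least 2-fold lower were 2, 1 and 1 genes, where 0.663%, 1.88% and 2.03% of all genes were. The median log2 ratio of the 8 was -0.18, -0.33 and -0.46, beside 0.01, 0.04 and 0.02 over all genes. All 3 times are compared with the same 0 h library, so the 3 counts are not independent. Closest to the 1.5-fold limit on the inner side were Insr at 4 h (-0.61) and Irs2 at 12 h (0.61) in DCT/CNT-like cells and Irs1 at 4 h in PT-like cells (-0.61), and on the outer side Trp53inp1 at 4 h in PT-like cells (-0.50). The label of the set as falling targets holds for some members only, since Foxo1 was not called in either class at any time.

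**Figure D2:**
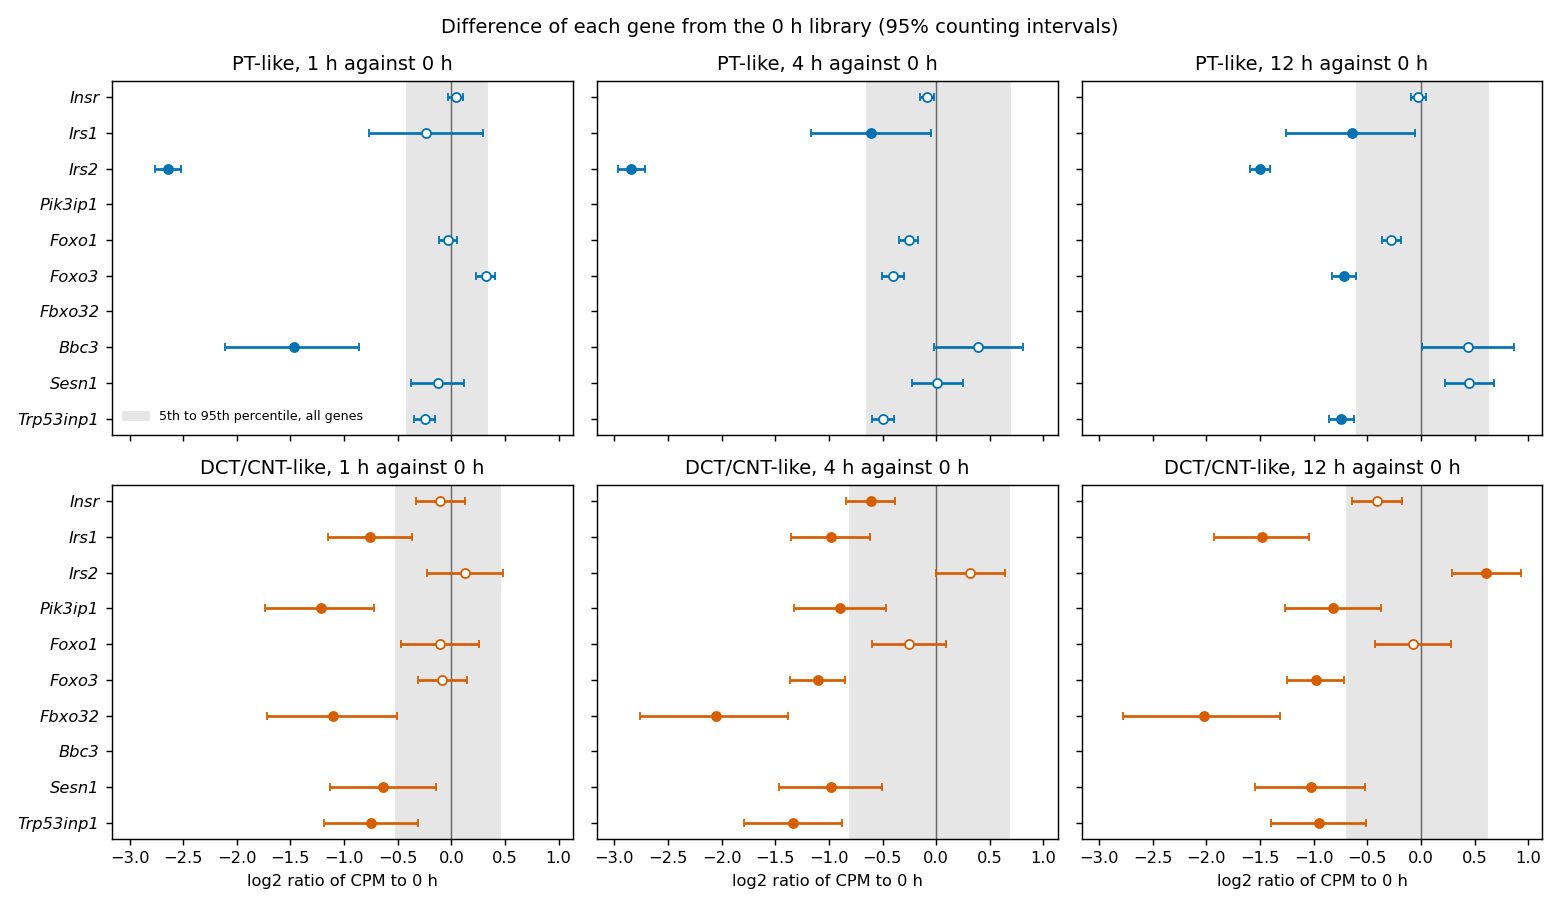
Log2 ratio of CPM to the 0 h library (horizontal axis) for each gene, by class (rows) and time (columns), with 95% counting intervals. Filled points differ at least 1.5-fold, genes under the UMI minimum are not drawn, and the grey band spans the 5th to the 95th percentile of all genes read. Irs2 lies far to the left in PT-like cells (-2.64 at 1 h) but not in DCT/CNT-like cells (0.12).

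Insr encodes the insulin receptor. Its level in DCT/CNT-like cells was 59.8 CPM at 0 h, then 55.7, 39.1 and 44.96 at 1, 4 and 12 h, so only the 4 h level reached the 1.5-fold limit, with a log2 ratio of -0.61 (-0.84 to -0.38). That call did not hold in male-called cells (-0.51, and -0.64 in female-called cells) or with doublet calls kept (-0.55). In PT-like cells it was at 36.9, 38.00, 34.8 and 36.3 CPM in the same order, and the 4 values lay close together. The largest difference there was -0.09 at 4 h.

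Irs1 encodes one of the IRS adaptors. DCT/CNT-like cells held it at 27.4 CPM at 0 h, then 16.2, 13.8 and 9.82 at 1, 4 and 12 h, from 142, 94, 109 and 64 UMIs. Each later level lay below the one before, but the intervals overlapped between 1 and 4 h and between 4 and 12 h. The log2 ratios were -0.76 (-1.15 to -0.37), -0.98 (-1.36 to -0.61) and -1.48 (-1.93 to -1.04). The fall was present in both DCT/CNT clusters, with -1.35 at 12 h in the cluster led by Slc12a3 and Pvalb (distal convoluted tubule genes) and -1.66 in the cluster led by S100g and Calb1 (calcium-binding proteins of the connecting segment). It was also present in both sexes, at -1.41 in cells called male and -1.98 in cells called female by X and Y transcripts. In IC-like cells, where Irs1 was highest, it stayed at 80.03, 91.7, 81.9 and 92.1 CPM. In TAL-like cells it was at 27.5, 33.6, 27.2 and 19.2 CPM, and the 12 h ratio of -0.52 was short of the limit. PT-like cells held 66, 58, 49 and 39 UMIs, and the calls at 4 and 12 h there (-0.61 and -0.65) had intervals that reached up to -0.05.

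Irs2 encodes the other adaptor, a well-known FoxO target in liver. In PT-like cells it was at 42.3 CPM at 0 h, then 6.78, 5.89 and 14.9 at 1, 4 and 12 h, from 3824, 634, 603 and 1248 UMIs. The 0 h level stood far above the other 3, and the 12 h level lay between. The log2 ratios were -2.64 (-2.76 to -2.52), -2.84 (-2.97 to -2.72) and -1.50 (-1.60 to -1.41). In DCT/CNT-like cells Irs2 did not fall, at 23.7, 25.9, 29.6 and 36.2 CPM. Only the 12 h level there passed the limit, higher by 0.61 (0.29 to 0.94) on the log2 scale. Within that class Irs2 was higher at 12 h in both clusters (0.64 and 1.03). By sex the 12 h ratio was 1.02 in male-called cells and 0.53, short of the limit, in female-called cells. With doublet calls kept it was 0.53, also short of the limit. In TAL-like cells it was at 19.1, 25.7, 13.01 and 12.96 CPM, with no value past the limit.

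**Figure D3:**
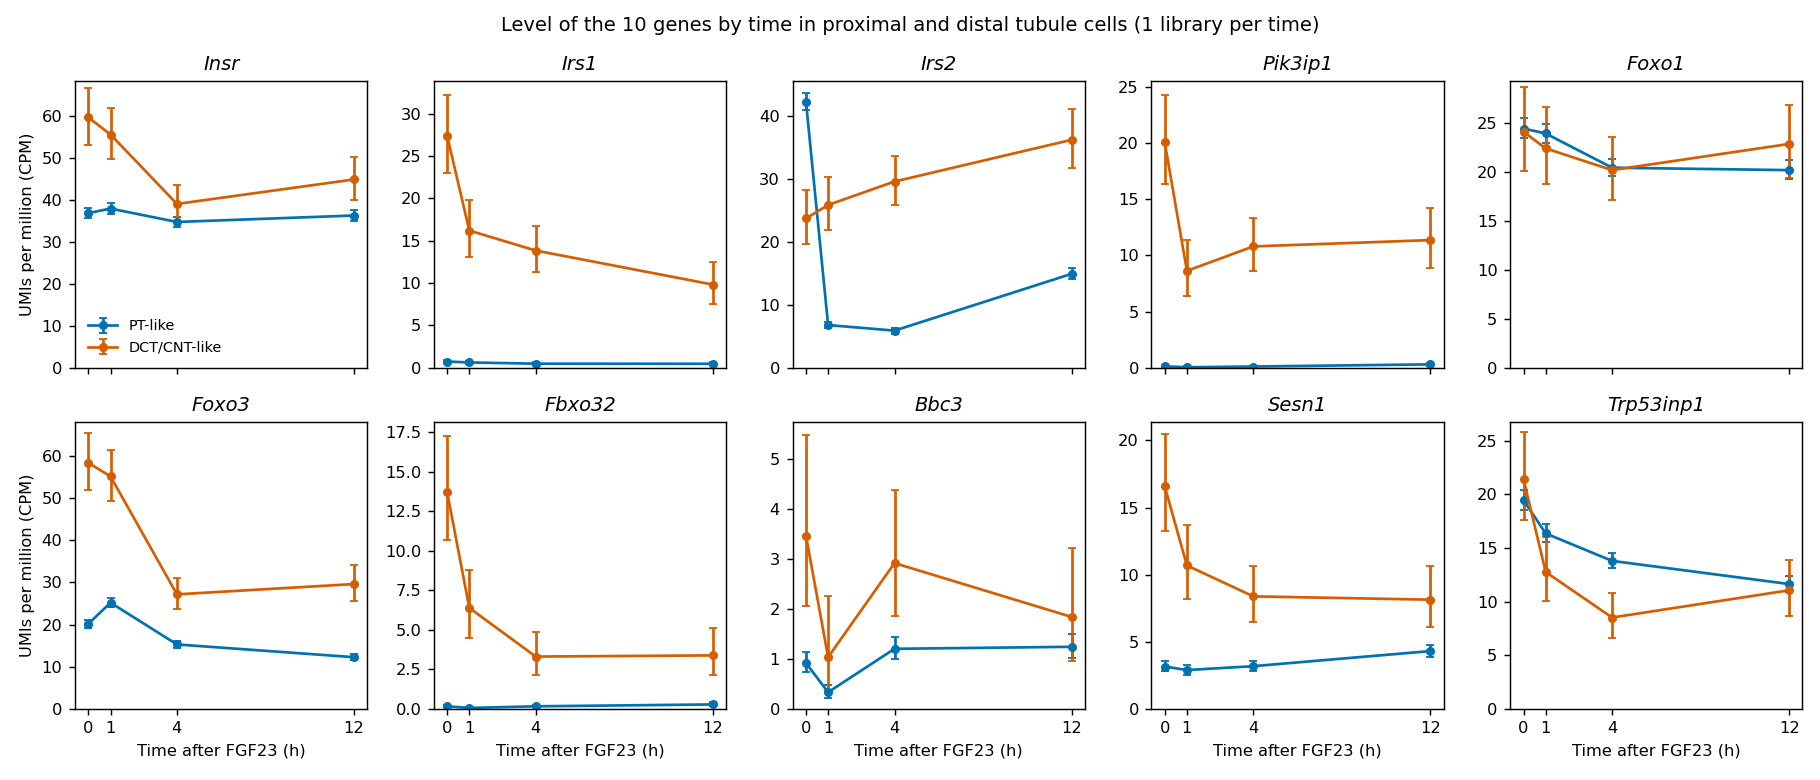
CPM of the 10 genes (vertical axis, from 0) against hours after FGF23 in PT-like (blue) and DCT/CNT-like cells (orange), 1 library per time, with 95% Poisson intervals. Irs2 drops in PT-like cells from 42.3 to 6.78 CPM by 1 h while it is 25.9 CPM in DCT/CNT-like cells, and Irs1, Fbxo32, Sesn1 and Foxo3 are lower at 4 and 12 h than at 0 h in DCT/CNT-like cells.

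The proximal tubule values of Irs2 were also read by segment and by sex, and differences between segments or sexes were not tested. In S3-like cells (the straight end segment) Irs2 was at 60.8, 6.69, 4.13 and 19.7 CPM, and in S1/S2-like cells (the convoluted part) at 23.03, 6.85, 7.02 and 12.7 CPM. The 1 h log2 ratios were -3.18 (-3.37 to -3.00) and -1.75 (-1.93 to -1.57), and the 2 segments had nearly the same level at 1 h. At 0 h the class held 3155 male-called and 1474 female-called cells. In male-called PT-like cells Irs2 was at 55.1, 5.46, 3.75 and 17.9 CPM, and in female-called PT-like cells at 17.1, 10.3, 11.1 and 11.6 CPM. At 0 h the male-called cells thus held more Irs2, and at 1 and 4 h the female-called cells did, with no overlap of the intervals. The log2 ratios were -3.33, -3.88 and -1.62 in male-called and -0.73, -0.62 and -0.56 in female-called cells, the last of them short of the limit. Segment and sex overlap, since S3-like cells at 0 h held 1858 male-called and 76 female-called cells. The segment names were given by cluster, from the same marker genes for both sexes. Whether those markers name the segments equally well in female-called cells was not tested. Within male-called cells the 1 h ratio was -2.51 in S1/S2-like and -3.73 in S3-like cells, and in female-called S1/S2-like cells it was -0.68. Female-called S1/S2-like cells, 1398 of the 1474 female-called cells at 0 h, were not called at 4 h (-0.28, interval -0.54 to -0.01) or 12 h (-0.19, interval -0.48 to 0.09). The female 4 h call over all PT-like cells was thus absent without the few S3-like cells.

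Female-called cells under the S3-like name followed another course. They were few, with 76, 56, 76 and 62 cells, and Irs2 was at 77.9, 60.7, 19.8 and 16.4 CPM. Their 1 h level was near that of 0 h (-0.36, interval -0.86 to 0.13), and the lower levels came at 4 h (-1.97) and 12 h (-2.25). In male-called S3-like cells the levels were 63.5, 4.79, 3.18 and 20.8 CPM, lowest at 1 and 4 h. Male and female S3-like cells had overlapping intervals at 0 h, and 4.79 and 60.7 CPM at 1 h. Of 17 PT-like clusters, 16 had at least 20 Irs2 UMIs at each time pair. At 1 h all 16 were below 0 h, 13 of them by 1.5-fold or more, with log2 ratios from -4.77 to -0.20. At 4 h 14 of the 16 were below 0 h, 13 of them by 1.5-fold or more, with the highest at 0.06. At 12 h 14 were below 0 h, 11 of them by 1.5-fold or more, with the highest at 0.28. The sexes are different animals within each library, so a difference between them cannot be told apart from a difference between mice.

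**Figure D4:**
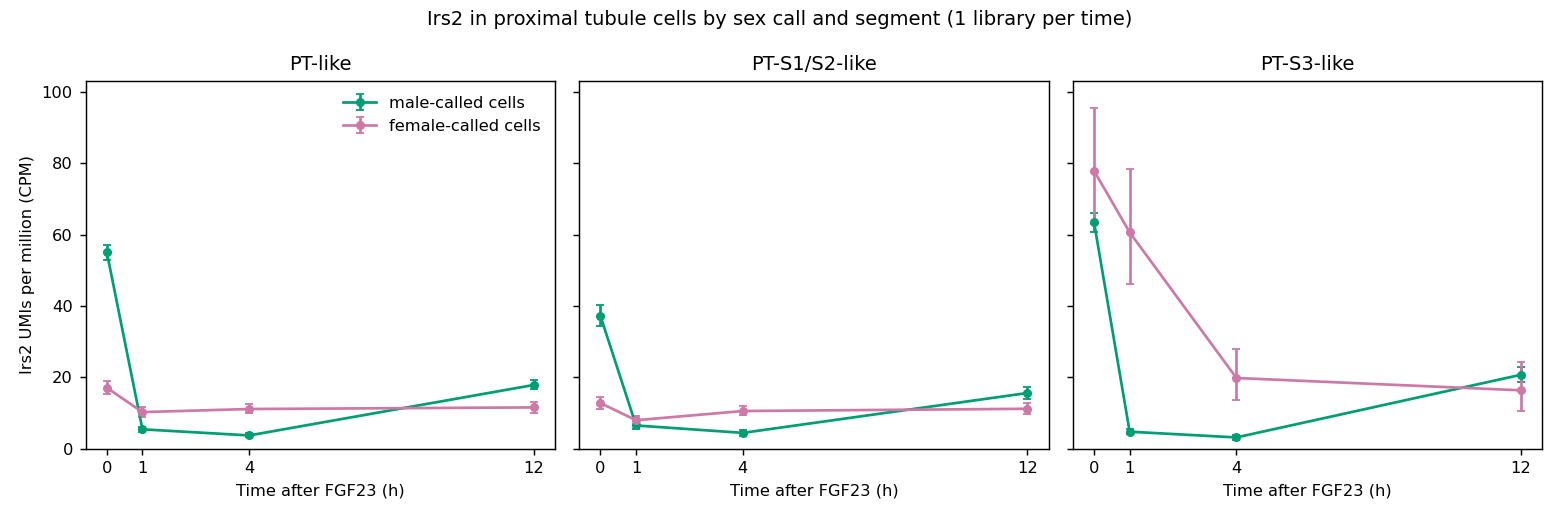
Irs2 CPM (vertical axis, from 0) against hours after FGF23 in all PT-like, S1/S2-like and S3-like cells, for male-called (green) and female-called (pink) cells, with 95% Poisson intervals. Male-called S3-like cells drop from 63.5 to 4.79 CPM by 1 h, and female-called S3-like cells are still at 60.7.

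Foxo1 and Foxo3 encode the transcription factors themselves. Foxo1 was at 24.1 CPM at 0 h, then 22.4, 20.2 and 22.9 at 1, 4 and 12 h in DCT/CNT-like cells and at 24.4, 23.9, 20.4 and 20.2 CPM in PT-like cells. All its log2 ratios in these classes lay between -0.28 and -0.03. In other classes Foxo1 passed the limit in both directions. IC-like cells were lower at 12 h, at 20.8 CPM against 33.9 at 0 h, with overlapping intervals. B-like cells were higher at 4 h, at 138 CPM against 66.8 at 0 h, with intervals that did not overlap. Foxo3 in DCT/CNT-like cells was at 58.4 CPM at 0 h, then 55.2, 27.2 and 29.6 at 1, 4 and 12 h. Its 0 and 1 h levels were alike and its 4 and 12 h levels were lower, with ratios of -1.10 (-1.36 to -0.85) and -0.98 (-1.25 to -0.71). In PT-like cells Foxo3 was at 20.2, 25.2, 15.3 and 12.2 CPM, so that the 1 h level was above 0 h (0.32, short of the limit) and the 12 h level below it (-0.72, interval -0.83 to -0.61).

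The late Foxo3 difference was present in several classes. In S1/S2-like cells the 12 h ratio was -1.06, and in S3-like cells -0.37. In PT-like cells of the 2 sexes the 12 h ratio was -0.39 in male-called cells, short of the limit, and -1.26 in female-called cells. In PC-like cells the ratios at 4 and 12 h were -0.89 and -0.71, and in TAL-like cells -0.42 and -0.57, short of the limit. Within DCT/CNT-like cells, male-called and female-called cells were both lower at 4 h (-1.63 and -0.67).

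Pik3ip1 encodes a membrane protein that holds back PI3K. DCT/CNT-like cells held it at 20.05 CPM at 0 h, then 8.62, 10.8 and 11.4 at 1, 4 and 12 h, from 104, 50, 85 and 74 UMIs. The 0 h level stood above the other 3, whose intervals overlapped, and the ratios were -1.22 (-1.73 to -0.72), -0.89 and -0.82. Female-called cells were lower at 1 h (-0.78) but not called at 4 h, at -0.39 (-1.05 to 0.26), or at 12 h, at -0.47 (-1.18 to 0.21). Male-called cells were under the UMI minimum at 1 h and lower at 4 h (-1.05) and 12 h (-0.62). In the Slc12a3- and Pvalb-led cluster Pik3ip1 was at 21.9, 5.95, 7.98 and 10.5 CPM, with a 1 h ratio of -1.88 (-2.64 to -1.18). The S100g- and Calb1-led cluster held it at 15.9, 13.3, 15.1 and 12.6 CPM, with a 1 h ratio of -0.26 (-1.08 to 0.57). The intervals of the 2 ratios did not overlap at 1 h, and the difference between the clusters was not tested. In PC-like cells Pik3ip1 went the other way, at 41.3, 47.3, 48.5 and 72.2 CPM, and was higher at 12 h (0.81, interval 0.23 to 1.40). TAL-like cells were at 13.3, 17.8, 18.1 and 9.07 CPM, with no value past the limit. Lower levels were not particular to DCT/CNT-like cells. B-like cells were at 111, 79.2, 81.3 and 52.2 CPM, past the limit at 12 h, and their intervals at 0 and 12 h did not overlap. T/NK-like cells were at 92.8, 121, 56.3 and 85.5 CPM, lowest and past the limit at 4 h, with overlapping intervals at 0 and 4 h.

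Fbxo32 encodes atrogin-1, a ubiquitin ligase subunit known from muscle wasting. It was at 13.7 CPM at 0 h, then 6.38, 3.30 and 3.38 at 1, 4 and 12 h in DCT/CNT-like cells, from 71, 37, 26 and 22 UMIs. It was lower at 1 h and lower again at 4 and 12 h, though the intervals of those levels overlapped that of 1 h. The ratios were -1.10 (-1.72 to -0.51), -2.05 (-2.76 to -1.39) and -2.02 (-2.78 to -1.31). These were the largest falls among the 9 genes in this class at 4 and 12 h. Female-called cells gave -1.35, -1.91 and -1.39, and male-called cells were under the UMI minimum. TAL-like cells were at 5.49, 8.76, 6.79 and 5.44 CPM and IC-like cells at 6.59, 10.3, 8.66 and 12.6 CPM, both under the UMI minimum at each time.

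Bbc3 encodes PUMA, a promoter of mitochondrial cell death that p53 also switches on. In PT-like cells it was at 0.918 CPM at 0 h, then 0.331, 1.20 and 1.24 at 1, 4 and 12 h, from 83, 31, 123 and 104 UMIs. Only the 1 h level was low, with a ratio of -1.47 (-2.11 to -0.86), and the 4 and 12 h levels were above 0 h by less than the limit (0.39 and 0.44). The low 1 h level was present in S1/S2-like (-1.80) and S3-like cells (-1.14). Male-called PT-like cells gave -1.08, 0.52 and 0.10 at 1, 4 and 12 h. Male-called S3-like cells were called higher at 4 h (0.79, interval 0.14 to 1.44). Female-called PT-like cells were at 0.331, 0.0453, 1.16 and 1.27 CPM, from 6, 1, 31 and 25 UMIs, under the UMI minimum at each time. Only 1 of 17 PT-like clusters had at least 20 Bbc3 UMIs at each time pair. Macrophage-like cells, where Bbc3 was highest, were at 37.6, 13.2, 31.4 and 23.4 CPM, with a 1 h ratio of -1.51 (-2.61 to -0.55), in a class whose own summed markers ranged from 1204 to 5801 CPM. Summed macrophage markers within PT-like cells were at 8.02, 4.64, 6.68 and 5.03 CPM, with 1 of 6 at 0 in at least 1 library, and the part of macrophage RNA in the PT-like result was not tested. DCT/CNT-like cells held 18, 6, 23 and 12 Bbc3 UMIs, at 3.47, 1.03, 2.92 and 1.84 CPM, too few for a call.

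Sesn1 encodes sestrin 1, a restraint on growth signalling that both p53 and FoxO factors induce. Its level in DCT/CNT-like cells was 16.6 CPM at 0 h, then 10.7, 8.38 and 8.13 at 1, 4 and 12 h, with ratios of -0.63 (-1.13 to -0.15), -0.98 (-1.47 to -0.50) and -1.03 (-1.55 to -0.52). Female-called cells were not called at 1 h, at -0.34 (-1.03 to 0.35), or at 4 h, at -0.27 (-0.95 to 0.41), and were lower at 12 h (-1.36). Male-called cells were under the UMI minimum at 1 h and lower at 4 h (-1.34) and 12 h (-0.86). With doublet calls kept, the 1 h ratio of the class was -0.56, short of the limit. In PT-like cells it was at 3.15, 2.89, 3.18 and 4.30 CPM, and the 12 h ratio of 0.45 was short of the limit. By sex, Sesn1 was called higher at 12 h in female-called PT-like cells, at 0.64 (0.23 to 1.06), and in the S1/S2-like cells among them (0.74), and was at 0.16 in male-called PT-like cells. Endothelial-like cells were at 23.1, 45.6, 29.2 and 37.4 CPM, higher at 1 h (0.98, interval 0.14 to 1.87) and at 12 h (0.69, interval -0.08 to 1.53). B-like cells were at 80.97, 71.8, 44.7 and 60.7 CPM and T/NK-like cells at 51.1, 46.9, 32.2 and 41.2 CPM. Both were lowest at 4 h, where they passed the 1.5-fold limit and the UMI minimum, with intervals that overlapped those of 0 h.

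Trp53inp1 encodes a stress protein of the p53 pathway that takes part in autophagy. The distal DCT/CNT-like cells held it at 21.4 CPM at 0 h, then 12.8, 8.51 and 11.05 at 1, 4 and 12 h, with ratios of -0.75 (-1.19 to -0.31), -1.33 (-1.79 to -0.88) and -0.95 (-1.40 to -0.51). At 1 h male-called cells were not called, at -0.38 (-1.07 to 0.32), and female-called cells were lower (-1.11), while both were lower at 4 and 12 h. The S100g- and Calb1-led cluster was at 10.4, 11.4, 3.21 and 5.91 CPM and under the UMI minimum, with its 1 h level near that of 0 h. In PT-like cells it was at 19.4, 16.3, 13.8 and 11.6 CPM, each level below the one before, and the 12 h level passed the limit (-0.74, interval -0.86 to -0.63). In PT-like cells the ratios by sex at 1, 4 and 12 h were -0.15, -0.57 and -0.81 in male-called and -0.68, 0.06 and -0.07 in female-called cells. In both classes the neutrophil markers, whose cells hold the most Trp53inp1 and Foxo3, were lower at 4 and 12 h, and in PT-like cells their sum was 12.6, 7.94, 2.25 and 3.98 CPM, with 1 of 6 markers at 0 in at least 1 library. The part of neutrophil RNA in the late falls of these 2 genes was not tested. Trp53inp1 also passed the limit in other classes. TAL-like cells were lower at 12 h, at 5.70 CPM against 10.02 at 0 h, with overlapping intervals. Neutrophil-like cells were at 116, 105, 43.9 and 98.1 CPM, lower at 4 h, from 73 UMIs at 0 h and 7 at 4 h.

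Other FoxO targets were read from a list of 32 genes, 31 of which were found. Of 26 read in DCT/CNT-like cells, 4 were lower and 5 higher at 1 h, 11 of 25 lower and 3 higher at 4 h, and 14 of 25 lower and 1 higher at 12 h. The list medians were -0.17, -0.57 and -0.70 on the log2 scale. Over all genes, 3.63%, 10.3% and 7.47% were lower and 2.75%, 6.66% and 5.60% higher, with medians of -0.03, -0.05 and -0.03. The list was also chosen with earlier results known, so nothing is read from that contrast. Lowest in the list at 4 h were Gadd45b (a stress sensor, -2.12), Tnfsf10 (the death ligand TRAIL, -1.43) and Txnip (a brake on glucose uptake, -1.28). Lowest at 12 h were Pdk4 (which spares glucose from oxidation, -2.30), Gadd45b (-1.95) and Txnip (-1.33). The cell cycle inhibitor Cdkn1a went the other way, with 1.51 at 4 h, and so did the damage-response gene Gadd45a, with 1.06. In PT-like cells 2 of 30 were lower and 3 higher at 1 h, and 6 lower and 2 higher at 4 h. At 12 h 7 were lower and 0 higher, and the medians were -0.02, -0.15 and -0.16. All genes there gave 2.68%, 6.00% and 5.20% lower and 1.61%, 6.95% and 5.68% higher, with medians of 0.01, 0.04 and 0.02. In the list Txnip was among the 3 lowest at each time in PT-like cells (-1.55, -2.20 and -1.91). The gluconeogenic FoxO targets Pck1 and G6pc were not called there. Pck1 and G6pc, genes of the proximal tubule, were lower in DCT/CNT-like cells at 1 h (-1.39 and -0.95). The summed PT markers in those cells were 700.0, 392, 467 and 439 CPM. Pck1 is itself one of those markers, so the sum is not independent of it.

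The rest of the insulin, PI3K and AKT pathway (37 genes) held fewer calls. Of 31 read in DCT/CNT-like cells, 2 were lower and 2 higher at 1 h, 5 of 32 lower and 2 higher at 4 h, and 4 of 31 lower and 0 higher at 12 h. The medians were 0.12, -0.08 and -0.12. Of all genes in DCT/CNT-like cells, 3.63%, 10.3% and 7.47% were lower and 2.75%, 6.66% and 5.60% higher. Foxo4, a further FoxO factor, was lower at each time there (-0.83, -0.91 and -0.86). Trib1, a pseudokinase, was higher at 1 and 4 h (2.18 and 1.12), and the AKT-related kinase gene Sgk1 was higher at 1 h (0.82) and lower at 12 h (-2.69). In PT-like cells Ddit4, an mTORC1 inhibitor, was lower at each time (-1.66, -0.78 and -1.64), and the list medians were 0.03, -0.02 and -0.04. Some genes are counted in more than 1 list. Ddit4 and Sgk1 are also among the glucocorticoid-responsive genes below, and Cdkn1a and Pmaip1 are both FoxO targets and p53 targets here.

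p53 targets, which Bbc3, Sesn1 and Trp53inp1 also are, were mostly not called in DCT/CNT-like cells. Of 15 read, 0, 1 and 1 were lower and 1, 3 and 0 higher at 1, 4 and 12 h, with medians of 0.07, -0.0048 and 0.01. In PT-like cells 0, 1 and 4 of 19 were lower and 2, 2 and 1 higher. Over all genes the lower shares at these times were 3.63%, 10.3% and 7.47% in DCT/CNT-like and 2.68%, 6.00% and 5.20% in PT-like cells. ERK feedback genes, which the FGF pathway induces, were higher in 6 of 10, 11 of 14 and 6 of 13 cases read in DCT/CNT-like cells at 1, 4 and 12 h, and in 9, 7 and 5 of 14 in PT-like cells. Their medians were 0.78, 1.52 and 0.31 in DCT/CNT-like and 1.22, 0.85 and 0.30 in PT-like cells. The higher shares over all genes were 2.75%, 6.66% and 5.60% in DCT/CNT-like and 1.61%, 6.95% and 5.68% in PT-like cells.

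Other gene programmes also differed between these libraries. Clock genes in PT-like cells were lower in 8 and higher in 5 of 15 at 4 h. Of all genes there, 6.00% were lower and 6.95% higher. Dbp, a clock output gene, was at 14.6, 7.94, 5.20 and 80.96 CPM in male-called PT-like cells. In female-called PT-like cells Dbp was at 49.9, 28.3, 3.30 and 11.2 CPM. Of 15 glucocorticoid-responsive genes read, 8 were lower and 2 higher at 12 h in PT-like cells. In DCT/CNT-like cells 6 were lower and 0 higher. Of all genes at 12 h, 5.20% were lower and 5.68% higher in PT-like and 7.47% and 5.60% in DCT/CNT-like cells. Tsc22d3, a glucocorticoid-induced gene, was lower at 1 h in DCT/CNT-like cells (-1.22), as Pik3ip1 was. Fkbp5, another, was at 48.1, 39.5, 40.3 and 33.5 CPM in male-called and 12.1, 34.9, 57.4 and 10.99 CPM in female-called PT-like cells. Dissociation stress genes had medians of 0.27, 0.21 and -0.16 in DCT/CNT-like and 0.09, 0.29 and -0.13 in PT-like cells. The part of time of day, glucocorticoid state or tissue digestion in the values of the 10 genes was not tested.

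Genes of like course were sought over 20 values (5 classes, 4 libraries), among 5724 genes with at least 20 CPM on average in PT-like or DCT/CNT-like cells. The values share libraries and depth, so the correlations are descriptions. Closest to Irs2 were Polr3e (Pearson r = 0.73), Mccc1 (0.70) and Slc25a12 (0.68), and Polr3e, a subunit of RNA polymerase III, was at 177, 106, 70.6 and 83.6 CPM in PT-like cells. Closest to Bbc3 were Nfkbia (0.68), Lasp1 (0.63) and Psmb2 (0.63). Setd7 was closest to both Fbxo32 (0.72) and Pik3ip1 (0.68), followed by Serpina1a (0.65) and Cdkn1b (0.65) for Fbxo32 and Actn1 (0.61) and Mvp (0.60) for Pik3ip1. Their levels did not all follow in DCT/CNT-like cells. Setd7 was at 24.9, 26.7, 20.8 and 18.7 CPM there, with no low value at 1 h, and Mvp was at 22.4, 15.9, 22.3 and 31.1 CPM, highest at 12 h. Serpina1a was at 0.771, 0.172, 0.254 and 0.460 CPM in the class where Fbxo32 was highest.

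Positions were taken from GENCODE vM21 (GRCm38) by gene ID. Irs2 lies on chromosome 8 from 10984681 to 11008458 on the minus strand, Irs1 on chromosome 1 from 82233101 to 82291416 (minus), and Bbc3 on chromosome 7 from 16308393 to 16318205 (plus). Fbxo32 lies on chromosome 15 from 58175879 to 58214932 (minus), and Pik3ip1 on chromosome 11 from 3330401 to 3342971 (plus). Insr lies on chromosome 8 from 3122061 to 3279617 (minus), Foxo1 on chromosome 3 from 52268336 to 52353221 (plus) and Foxo3 on chromosome 10 from 42181841 to 42276755 (minus). Sesn1 lies on chromosome 10 from 41809935 to 41908424 (plus) and Trp53inp1 on chromosome 4 from 11156431 to 11174379 (plus). Annotated genes on the other strand overlap Irs1, Irs2, Pik3ip1, Fbxo32, Foxo1 and Insr, and genes on the same strand overlap Sesn1 and Foxo1. How the counting treated such overlaps is not given in the sources used here, so the values of these 7 genes could include reads of an overlapping gene.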

How the data were processed

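Single-cell RNA was counted in 4 kidney libraries with 10x Genomics 3' V3 chemistry, per the labels' protocols. Each matrix holds raw UMI counts by gene and barcode, deposited by the authors without normalization, per the file headers. Cell Ranger 3.1.0, STAR, Seurat and the build mm10 are named in the submitters' processing notes, and the annotation is not given in the sources used here. Of 31053 gene IDs, 31011 were found in GENCODE vM21.

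Barcodes with under 300 genes or over 50% mitochondrial UMIs were left out. Simulated doublets among 30 neighbours marked 7.07% to 8.21% of cells, which were removed. Clustering used leidenalg 0.10.2 (resolution 1.5, 20 neighbours, 30 components, 2014 genes) under Python 3.11.15 with scipy 1.17.1. A cluster took the class whose markers reached the highest mean share of their top cluster level. These naming rules were settled once clusters were known, and left 3.04% to 4.32% of cells unnamed.

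Within each library the UMIs of a class were added up and expressed as CPM, with exact Poisson intervals, and exact conditional binomial intervals were computed for ratios to 0 h. UMIs correct for amplification, and the intervals cover counting error only, not animals. The calculation was tested on simulated data. All 10 genes are named, and list genes were named by a rule of at most 3 lowest and 3 highest called per class and time, with Foxo4, Sgk1, Trib1, Ddit4, Txnip, Pck1, G6pc and Tsc22d3 also followed at times outside it, chosen after their values were seen. The genes and lists were chosen with earlier results of these data known.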

Additional observations from a re-analysis of the deposited data

Results flagged for a closer look

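Irs2 at 12 h differed in direction between the 2 tubule classes, with a log2 ratio to 0 h of -1.50 in PT-like and 0.61 in DCT/CNT-like cells, a difference of -2.11. Each class had 1 library per time, and the difference itself was not tested. In both DCT/CNT clusters the value was above 0 h (0.64 and 1.03), and it was below 0 h in male-called and female-called PT-like cells (-1.62 and -0.56). The female value was short of the 1.5-fold limit, and in female-called S1/S2-like cells, which were 1398 of 1474 female-called cells at 0 h, it was -0.19 (-0.48 to 0.09). Male-called DCT/CNT-like cells gave 1.02. Those called female gave 0.53, short of the limit, as was the value with doublet calls kept (0.53).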

How the results depend on the processing

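No paired analysis was possible because each time had 1 library. With 1 library per group, leaving out a replicate was also not possible. The counts of genes at least 1.5-fold lower were recomputed under 12 settings, and no log2 ratio past the limit changed sign among 51 ratios. Of their recomputed values, 426 moved by less than their counting interval and 81 by more. At the 2-fold limit the counts in PT-like cells fell from 2 to 1 at 4 h and from 4 to 1 at 12 h. In DCT/CNT-like cells they were 2 in place of 5 at 1 h, 3 in place of 7 at 4 h and 3 in place of 6 at 12 h. In male-called cells alone they were 1 of 7 at 4 h and 2 of 7 at 12 h in PT-like cells, and 1 of 6 at 1 h in DCT/CNT-like cells. In female-called PT-like cells 1 of 6 was lower at 12 h, and at Leiden resolution 1.0 the PT-like count at 4 h was 1. A mitochondrial limit of 25%, below the 33.7% median of DCT/CNT-like cells at 12 h, left too few UMIs for most genes in that class. There the count was 0 of 2 genes read at 1 h, 2 of 4 at 4 h and 1 of 4 at 12 h. Clusters weighted by their 0 h make-up, a setting chosen after seeing the data, moved 2 of 51 ratios and lost no call. Of the 27 called ratios, female-called cells alone left 7 under 1.5-fold, male-called cells alone 5, the mitochondrial limit of 25% 4 and doublet calls kept 3 (Sesn1 at 1 h, Insr at 4 h and Irs2 at 12 h, all in DCT/CNT-like cells).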
